A study of Mus musculus with 6 samples.

Results

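A group of 9 transcription factor genes (Ikaros family, E protein and other lymphoid regulators) was followed in mouse bone marrow LSK cells with and without an activated Phf6 R274X allele. The genes were Ikzf1, Ikzf2, Ikzf3, Tcf3, Tcf12, Foxo1, Bach2, Mef2c and Bcl11a, taken by name after Ensembl identifiers had been matched to symbols. They make up 9 of the 54532 genes in the deposited tables, and all 9 were found and passed the filter on low counts.

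LSK cells are the bone marrow fraction that lacks lineage markers and carries both Sca-1 and c-Kit, a gate rich in blood stem cells and early progenitors. RNA of 6 libraries was sequenced, 3 of genotype Phf6fl-R274X/Y without Cre (controls) and 3 of genotype Vav1-Cre; Phf6fl-R274X/Y (R274X libraries). All 6 therefore carried the floxed R274X allele, and the Y marks males with 1 copy of the X-linked gene. Phf6 encodes a PHD finger chromatin protein, R274X is a premature stop codon, and Vav1-Cre is a recombinase driven by a promoter active throughout blood cells. Cre was present in every R274X library and in no control, so an effect of Cre itself cannot be told apart from that of the allele. The labels give no age and do not state that each library is a separate mouse, so p-values reflect library-to-library spread, possibly technical.

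Ikaros family proteins (Ikzf genes) are zinc finger factors that bind DNA as dimers, and progenitors need Ikaros itself to enter the lymphoid lineages. E proteins, encoded by Tcf3, Tcf12 and Tcf4, are basic helix-loop-helix factors that switch on B and T cell genes, and Id proteins block them by pairing with them without binding DNA. Foxo1, Bach2, Mef2c and Bcl11a act around the same step: they turn on recombination and cytokine receptor genes, hold down myeloid and plasma cell programmes, or allow B cell precursors to form.

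The controls and the R274X libraries held 15406314 to 18106065 counts each. Phf6 itself lay at 31.8, 29.6 and 33.5 CPM (counts per unit of library size, scaled with TMM factors) in controls 1 to 3. It lay at 8.47, 10.3 and 8.29 CPM in R274X libraries 1 to 3, which was 3.51-fold lower (edgeR quasi-likelihood test, Benjamini-Hochberg adjusted p = 6.67e-06). The gate genes went in opposite directions: Kit fell from 158 ± 12.8 to 96.7 ± 14.8 CPM (SD, n = 3; edgeR adjusted p = 0.00159), while Ly6a, which encodes Sca-1, rose from 142 ± 5.07 to 247 ± 15.6 CPM (edgeR adjusted p = 5.83e-05). Immunoglobulin genes took 0.649%, 0.293% and 1.18% of the counts in controls 1 to 3 and 6.85%, 7.95% and 4.45% in R274X libraries 1 to 3. This 9.09-fold difference in means gave p = 0.1 in an exact two-sided permutation test, the smallest value that 3 against 3 libraries allow.

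Among the 9 regulators, Ikzf3, Tcf3 and Foxo1 rose in the R274X libraries, Ikzf2 fell, and the other 5 did not pass the test (edgeR quasi-likelihood test, Benjamini-Hochberg adjusted p under 0.05 over 14608 tested genes). The same test called 17.9% of all tested genes, 10.1% higher and 7.89% lower. Upper-quartile scaling in place of TMM gave 1215 higher and 1430 lower genes, against 1469 and 1152. Without control 1, control 2, R274X 1 or R274X 2 the number of genes called higher was 839, 682, 711 and 774, and the number called lower 623, 560, 507 and 566. The median log2 fold change was 0.24 over the 9 regulators and -0.02 over all tested genes. In 5 regulators the CPM values of the groups did not overlap, 4 higher and 1 lower, against 37.2% of all tested genes (18.9% higher and 18.3% lower). With 9 genes chosen when earlier results of these data were known, these counts describe the genes and were given no test of their own. These are bulk samples, in which fewer cells of a type and less RNA per cell cannot be told apart. With the immunoglobulin percent as a covariate, which itself does not overlap between the groups, 68 genes were called higher and 7 lower, and none of the 9 regulators was among them. In that fit Ikzf3 was at 1.18 (SE 0.538) and Ikzf2 at -0.46 (SE 0.457) on the log2 scale, on the same side of 0 as without it. Tcf3 (-0.088, SE 0.202) and Foxo1 (-0.45, SE 0.373) changed sign. With SEs of this size, the signs do not separate these regulators from each other.

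**Figure D1:**
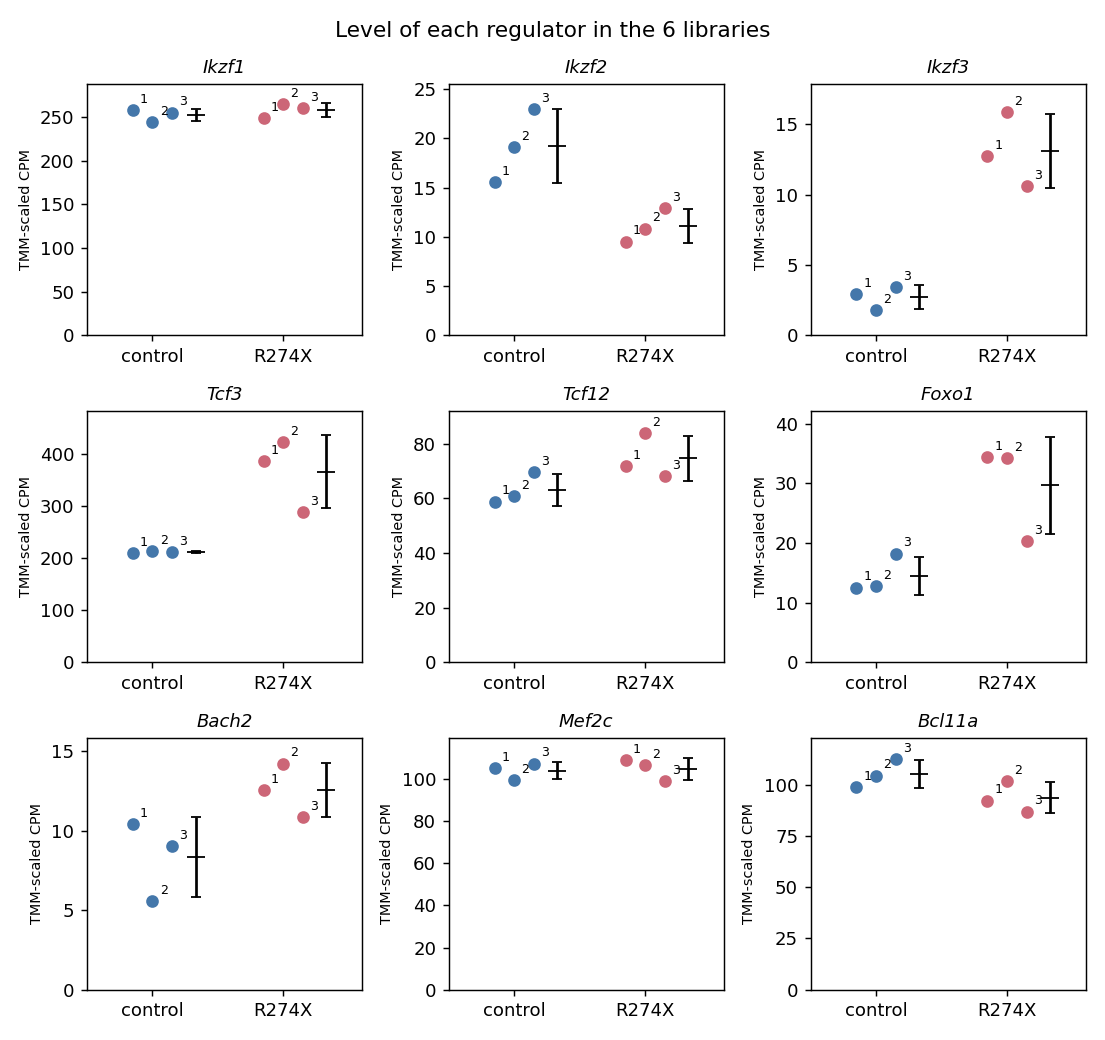
TMM-scaled CPM (vertical axes, starting at 0) of each of the 9 regulators in control (blue) and R274X (red) libraries. Points carry the library number, and the black bar beside each group is the mean ± SD of 3 libraries. The groups are apart for Ikzf2, Ikzf3, Tcf3, Foxo1 and Bach2.

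The strongest change belonged to Ikzf3, which encodes Aiolos, an Ikaros family factor that rises as B cell precursors mature. Ikzf3 (ENSMUSG00000018168, GRCm38 chr11:98464902-98546031, minus strand) stood at 2.91, 1.77 and 3.44 CPM in controls 1 to 3 and at 12.7, 15.9 and 10.6 CPM in R274X libraries 1 to 3. Every R274X library was above every control. The difference was 4.82-fold, a log2 fold change of 2.27 (SE 0.247, 95% interval 1.73 to 2.80, edgeR adjusted p = 0.000166). The raw counts behind it were 55, 33 and 64 against 197, 240 and 159, and its mean CPM over all 6 libraries was at the 32.0th percentile of tested genes.

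Ikzf2, which encodes Helios, an Ikaros family factor found in stem cells and regulatory T cells, went the other way. Its levels (ENSMUSG00000025997, GRCm38 chr1:69531214-69687245, minus strand) were 15.6, 19.1 and 23.0 CPM in controls 1 to 3 and 9.51, 10.8 and 12.9 CPM in R274X libraries 1 to 3. All R274X values lay below the lowest control. Ikzf2 was 1.73-fold lower, a log2 fold change of -0.79 (SE 0.164, 95% interval -1.15 to -0.44, edgeR adjusted p = 0.00618). Tested on log2(FPKM + 1) with limma in place of counts, the value was -0.43 and missed the threshold (adjusted p = 0.0677), and with the smaller pseudocount of 0.1 it was -0.72 (limma adjusted p = 0.0638); with every gene of any FPKM kept the first adjusted p was 0.116.

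Ikzf1, which encodes Ikaros, did not differ detectably. It lay at 258, 244 and 255 CPM in controls 1 to 3 and at 249, 264 and 259.7 CPM in R274X libraries 1 to 3 (ENSMUSG00000018654, GRCm38 chr11:11685003-11772926, plus strand). The groups overlapped, and the log2 fold change of 0.03 had a 95% interval of -0.12 to 0.18 (edgeR adjusted p = 0.808). That interval does not reach the changes of Ikzf3 or Ikzf2.

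Because length is divided out in FPKM (fragments per length and library size), the family members can be set side by side on that scale. That length is the merged exons of all annotated transcripts, such as 15529 bases for Tcf12 and 4039 for Tcf3. It need not be the length of the RNA present, and the family shares, gene ratios and level order given here depend on it. Ikzf1 made up 95.02 ± 0.741% of the summed FPKM of the 5 Ikaros family genes in the controls and 94.2 ± 0.401% in the R274X libraries (SD, n = 3). Below it the order of the minor members was exchanged. The Ikzf2 share went from 3.60 ± 0.682% to 2.02 ± 0.280%, and the Ikzf3 share from 0.670 ± 0.198% to 3.16 ± 0.586%. Per library, the FPKM ratio of Ikzf2 to Ikzf3 was 4.03, 8.15 and 5.03 in controls 1 to 3 and 0.562, 0.515 and 0.915 in R274X libraries 1 to 3. Helios RNA thus exceeded Aiolos RNA per length in every control and was below it in every R274X library, while the family sum was 45.6 ± 1.47 and 47.2 ± 1.73 FPKM. In CPM, where length is not divided out, Ikzf2 was still above Ikzf3 in R274X library 3 (12.9 against 10.6). The remaining family members were scarce: Ikzf4 had at most 12 counts in a library and was not tested, and Ikzf5 had a log2 fold change of 0.16 (edgeR adjusted p = 0.82).

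Tcf3 encodes the E2A proteins, the E proteins that B cell precursors depend on most. Its mean CPM over all 6 libraries was at the 96.8th percentile of tested genes, although Ikzf1 was above it in CPM in every control. Tcf3 (ENSMUSG00000020167, GRCm38 chr10:80409514-80433647, minus strand) lay at 209.9, 213 and 211 CPM in controls 1 to 3 and at 387, 424 and 289 CPM in R274X libraries 1 to 3. The controls agreed to within a coefficient of variation of 0.805%, whereas the R274X libraries, all higher, spread over 19.0%. The difference was 1.73-fold, a log2 fold change of 0.79 (SE 0.124, 95% interval 0.51 to 1.07, edgeR adjusted p = 0.00313). On log2(FPKM + 1) with every gene of any FPKM kept it was 0.77 (limma adjusted p = 0.0507).

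Tcf12, which encodes the E protein HEB, moved less and its groups overlapped. It was at 58.8, 60.8 and 69.6 CPM in controls 1 to 3 and at 71.9, 83.9 and 68.2 CPM in R274X libraries 1 to 3 (ENSMUSG00000032228, GRCm38 chr9:71842688-72111871, minus strand). Its log2 fold change of 0.24 had an SE of 0.0956 (edgeR adjusted p = 0.0958). Without R274X library 3 it was 0.31 and passed the threshold (edgeR adjusted p = 0.0373). Without R274X library 2 it was 0.15 (edgeR adjusted p = 0.347), and without control 1 it was 0.18 (0.310). It passed, at 0.42, when a per-library offset on gene length was used (edgeR adjusted p = 0.0116).

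The third E protein gene, Tcf4, which plasmacytoid dendritic cells require, went from 52.7 ± 2.91 to 63.7 ± 5.60 CPM, a log2 fold change of 0.27 (edgeR adjusted p = 0.0485). That call was lost without any 1 of control 1, control 2, control 3, R274X 1 or R274X 2, where the edgeR adjusted p lay between 0.0819 and 0.191. It was also lost with upper-quartile scaling (edgeR adjusted p = 0.0853), a mean count of at least 50 (0.0536) or the robust option off (0.0666). DESeq2 (adjusted p = 0.0555), limma-voom (0.0512) and limma on log2(FPKM + 1) (0.183) missed the threshold as well. Summed per length, the E protein genes went from 57.9 ± 0.679 to 97.6 ± 17.7 FPKM, with Tcf3 at 89.7% of the sum in the controls and 92.6% in the R274X libraries.

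The Id genes, whose products hold E proteins off DNA, did not move as a block. Id2, the Id gene of innate lymphoid and dendritic cells, was at 69.2, 51.8 and 71.5 CPM in controls 1 to 3 and at 148, 107 and 112 CPM in R274X libraries 1 to 3. Its log2 fold change was 0.93 (edgeR adjusted p = 0.0199), and the adjusted p was 0.0563 without control 1. Id3, an E protein target and inhibitor in lymphocytes, had a log2 fold change of 1.31 that missed the threshold (edgeR adjusted p = 0.0518), with R274X library 3 at 37.5 CPM and R274X libraries 1 and 2 at 62.2 and 72.9. Id1, the Id gene most active in stem and endothelial cells, had a log2 fold change of -0.79 (edgeR adjusted p = 0.138) with overlapping groups, and Id4 was too low to test. The summed FPKM of the Id genes went from 56.4 ± 12.2 to 92.1 ± 11.4. The FPKM ratio of E protein genes to Id genes was 1.00, 1.32 and 0.860 in controls 1 to 3 and 0.989, 1.22 and 0.966 in R274X libraries 1 to 3, so the ratios overlapped, with a mean of 1.06 in each group.

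Foxo1 encodes a forkhead factor that phosphoinositide 3-kinase and AKT signalling keeps out of the nucleus and that switches on Il7r and the Rag genes in B cell precursors. Foxo1 (ENSMUSG00000044167, GRCm38 chr3:52268336-52353221, plus strand) lay at 12.5, 12.8 and 18.2 CPM in controls 1 to 3 and at 34.3, 34.3 and 20.3 CPM in R274X libraries 1 to 3. R274X library 3 was only just above control 3, and the other R274X libraries stood well apart. The difference was 2.04-fold, a log2 fold change of 1.03 (SE 0.251, 95% interval 0.43 to 1.63, edgeR adjusted p = 0.0363). The call was lost without control 1 (0.92, edgeR adjusted p = 0.119), control 2 (0.93, 0.124), R274X 1 (0.91, 0.119) or R274X 2 (0.91, 0.0955). It was also missed on FPKM with limma, at 0.71 with a pseudocount of 1 (adjusted p = 0.0577, and 0.105 with every gene of any FPKM kept) and at 0.98 with a pseudocount of 0.1 (limma adjusted p = 0.0538).

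Its relative Foxo3, a forkhead factor that preserves quiescent stem cells, fell. Foxo3 was at 94.9, 106 and 104 CPM in controls 1 to 3 and at 63.9, 75.2 and 74.4 CPM in R274X libraries 1 to 3, 1.43-fold lower without overlap (log2 fold change -0.51, edgeR adjusted p = 0.00168). Foxo4, a forkhead factor under the same control by AKT, had a log2 fold change of -0.08 (edgeR adjusted p = 0.625), and Foxo6 was too low to test. The FPKM ratio of Foxo3 to Foxo1 was 8.65, 9.50 and 6.50 in controls 1 to 3 and 2.13, 2.51 and 4.19 in R274X libraries 1 to 3, so Foxo3 was the higher gene per length in all 6 libraries by a narrower margin in the R274X group.

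Bach2 encodes a bZIP repressor of Prdm1 and of myeloid genes. It lay at 10.4, 5.57 and 9.04 CPM in controls 1 to 3 and at 12.5, 14.2 and 10.8 CPM in R274X libraries 1 to 3 (ENSMUSG00000040270, GRCm38 chr4:32238804-32586108, plus strand). The groups did not overlap, although R274X library 3 and control 1 were close, and the log2 fold change of 0.59 missed the threshold (SE 0.215, 95% interval 0.12 to 1.06, edgeR adjusted p = 0.0815). It passed without a count filter (0.56, edgeR adjusted p = 0.0116) and with a gene length offset (0.71, edgeR adjusted p = 0.0467), and was 0.35 without control 2 (edgeR adjusted p = 0.242). Bach1, the relative that represses haem and iron genes, had a log2 fold change of -0.12 (edgeR adjusted p = 0.424). The FPKM ratio of Bach1 to Bach2 was 5.35, 10.9 and 6.48 in controls 1 to 3 and 4.10, 4.22 and 4.59 in R274X libraries 1 to 3, with Bach1 above Bach2 in every library.

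Mef2c and Bcl11a, both well expressed in these cells, did not pass the test. Mef2c, a MADS-box factor that favours lymphoid over myeloid output, was at 105, 99.6 and 107 CPM in controls 1 to 3 and at 109, 107 and 99.2 CPM in R274X libraries 1 to 3 (ENSMUSG00000005583, GRCm38 chr13:83504034-83667080, plus strand). Its groups lay on top of each other, and the log2 fold change of 0.01 had a 95% interval of -0.14 to 0.17 (edgeR adjusted p = 0.926). Bcl11a, a zinc finger repressor needed for B cell and plasmacytoid dendritic cell formation, was at 98.8, 105 and 112 CPM in controls 1 to 3 and at 92.4, 102 and 87.0 CPM in R274X libraries 1 to 3 (ENSMUSG00000000861, GRCm38 chr11:24078056-24174123, plus strand). The groups overlapped at R274X library 2, and the log2 fold change was -0.17 (95% interval -0.34 to 0.01, edgeR adjusted p = 0.177).

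Among their relatives, Bcl11b, which commits T cell precursors, rose from 0.445 ± 0.349 to 1.95 ± 0.718 CPM (log2 fold change 2.11, edgeR adjusted p = 0.0223). It rested on 8, 15 and 2 counts in controls 1 to 3 and on 37, 17 and 35 counts in R274X libraries 1 to 3, and the edgeR adjusted p was 0.0847 without control 1, 0.0572 without control 3 and 0.105 without R274X 1. The muscle and neuron factors Mef2a and Mef2d, also present in blood cells, had log2 fold changes of 0.07 and 0.06 (edgeR adjusted p = 0.616 and 0.668). Mef2b, active in germinal centre B cells, had a log2 fold change of 1.78 (edgeR adjusted p = 0.0701). Of the 15 relatives and Id genes listed, 12 were tested: Id2, Bcl11b and Tcf4 rose, Foxo3 fell and 8 did not pass, with a median log2 fold change of 0.12. Over all tested genes, 10.1% were called higher and 7.89% lower. The number that rose was 0 without control 1, 1 without R274X 1 and 5 without R274X 3, and 2 fell without R274X 3.

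**Figure D2:**
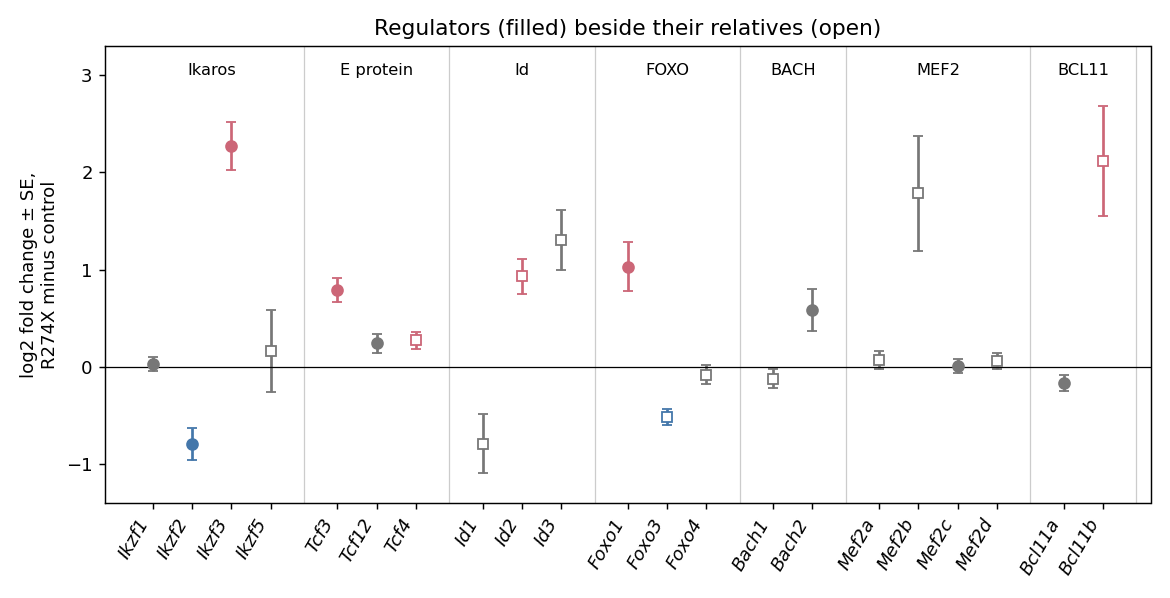
Log2 fold change, R274X minus control, ± SE from edgeR (vertical axis) for the regulators (filled circles) and their tested relatives (open squares), grouped by family. Red marks adjusted p under 0.05 and higher, blue lower, grey not passed. Within the Ikaros family Ikzf3 is at 2.27 and Ikzf2 at -0.79, and within the FOXO factors Foxo1 is at 1.03 and Foxo3 at -0.51.

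**Figure D3:**
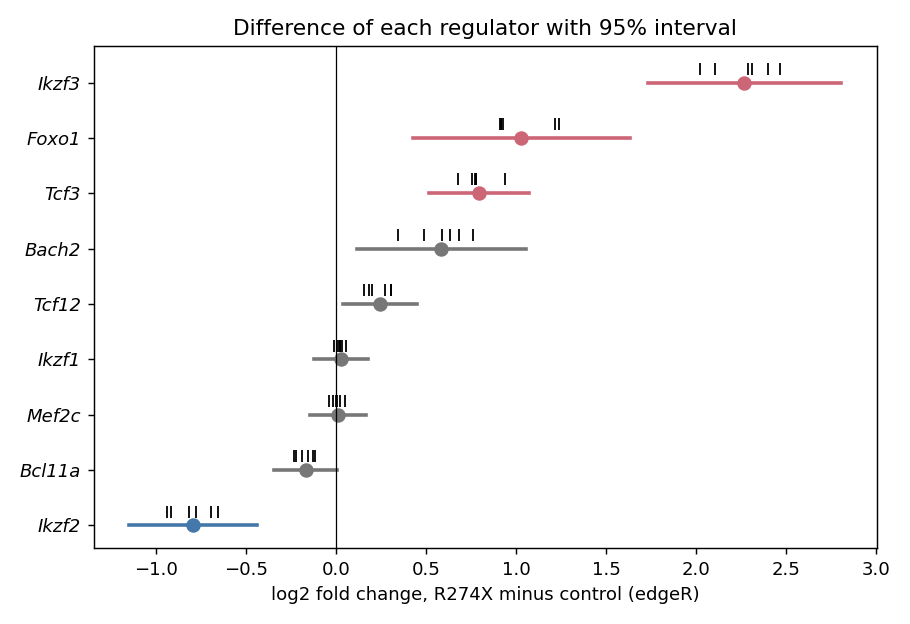
Log2 fold change, R274X minus control (horizontal axis), with its 95% interval for each of the 9 regulators; red is called higher, blue called lower and grey not passed. Short black ticks mark the value when each of the 6 libraries was left out in turn. The ticks of Ikzf1 and Mef2c fall on both sides of 0, and those of the other 7 regulators stay on 1 side.

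Leaving out each of the 6 libraries in turn, Ikzf3, Tcf3 and Ikzf2 stayed past the threshold in all 6 fits of edgeR, and Foxo1 in the fits without control 3 and without R274X 3. The number of regulators called higher lay between 2 and 4 and the number called lower was 1 in each of these fits.

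The order of levels per length put Tcf3 (51.9 ± 0.318 FPKM) and Ikzf1 (43.3 ± 1.44) first in the controls. Bcl11a (7.92 ± 0.542), Mef2c (6.57 ± 0.292) and Tcf12 (4.03 ± 0.386) followed. Foxo1 (1.66 ± 0.379) and Ikzf2 (1.64 ± 0.322) could not be ranked, since their ranges overlapped, and Bach2 (0.833 ± 0.252) and Ikzf3 (0.307 ± 0.0986) were lowest. Tcf3 and Ikzf1 also led in the R274X libraries, at 90.4 ± 17.1 and 44.4 ± 1.46 FPKM. There Bcl11a (7.09 ± 0.567) and Mef2c (6.66 ± 0.314) overlapped, Tcf12 (4.79 ± 0.522) and Foxo1 (3.41 ± 0.922) came next, and Ikzf3 (1.49 ± 0.299) overlapped Bach2 (1.26 ± 0.168), which overlapped Ikzf2 (0.952 ± 0.149). Ikzf3 was thus the lowest of the 9 in the controls and Ikzf2 had the lowest mean in the R274X libraries.

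**Figure D4:**
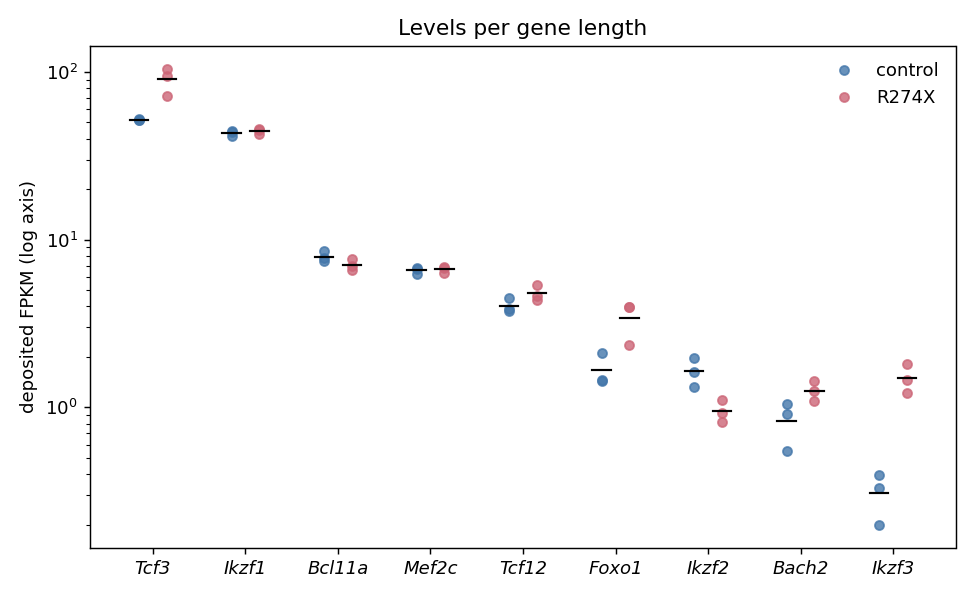
Deposited FPKM (vertical log axis) of the 9 regulators, ordered by their mean in the controls, in 3 control (blue) and 3 R274X (red) libraries. Points are libraries and black lines are group means. Tcf3 and Ikzf1 lie above 40 FPKM in both groups and the other 7 below 10.

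The start regions of the regulators were read from RefSeq (GRCm38.p6), as windows of 300 bases that run from 250 before to 50 after a gene's start. Windows were found for 7 of the 9 genes, 12 windows in all; Ikzf2 and Ikzf3 had no entry. Those of Tcf3 and Foxo1 are shown because these genes rose, and the first Ikzf1 window because Ikzf1, also a high gene, did not pass the test. Each is written 5′ to 3′ along the gene's strand, with CpG pairs in capitals. The Tcf3 window is chr10:80433586-80433885 (minus strand), the Foxo1 window chr3:52268087-52268386 (plus strand) and the Ikzf1 window chr11:11685675-11685974 (plus strand).
Tcf3: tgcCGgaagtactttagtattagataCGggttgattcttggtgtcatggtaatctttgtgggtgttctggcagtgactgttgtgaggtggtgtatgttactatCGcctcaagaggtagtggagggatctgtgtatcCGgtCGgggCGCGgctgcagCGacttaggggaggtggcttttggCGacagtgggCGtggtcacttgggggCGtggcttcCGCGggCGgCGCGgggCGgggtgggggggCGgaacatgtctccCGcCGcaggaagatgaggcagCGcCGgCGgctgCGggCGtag
Foxo1: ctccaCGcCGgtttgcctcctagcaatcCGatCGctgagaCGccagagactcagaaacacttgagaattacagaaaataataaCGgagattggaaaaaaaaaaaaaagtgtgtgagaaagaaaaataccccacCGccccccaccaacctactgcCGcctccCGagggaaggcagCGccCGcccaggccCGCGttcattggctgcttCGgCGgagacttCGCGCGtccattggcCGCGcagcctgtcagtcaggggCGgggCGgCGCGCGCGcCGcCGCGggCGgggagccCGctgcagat
Ikzf1: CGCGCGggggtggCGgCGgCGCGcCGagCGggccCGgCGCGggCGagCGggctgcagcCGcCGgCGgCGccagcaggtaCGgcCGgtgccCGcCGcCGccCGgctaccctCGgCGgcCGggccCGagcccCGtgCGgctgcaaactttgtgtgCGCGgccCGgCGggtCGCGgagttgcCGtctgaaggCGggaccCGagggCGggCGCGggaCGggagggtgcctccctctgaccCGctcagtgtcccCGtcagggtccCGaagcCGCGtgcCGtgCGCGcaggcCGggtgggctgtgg
These windows held 25, 31 and 52 CpG pairs at 61.7%, 61.3% and 81.3% G and C, against a median of 7 pairs and 52.7% over all RefSeq windows. The second Ikzf1 window held 2 pairs at 49.0%.

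Short motifs were searched on both strands of the 12 windows. The E-box CAGGTG, found in 20.2% of all 32851 windows, and the forkhead motif GTAAACA, found in 3.65%, matched none. The E-box CAGCTG (16.3% of all windows) matched a Tcf12 window and the Ikaros core TGGGAA (25.6%) the Bcl11a window. The TPA response element TGAGTCA (5.20%) matched another Tcf12 window. No window held matches to more than 1 of the motifs, no motif contains another, and a match describes the letters only.

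The lists of genes downstream of the regulators were compiled from background knowledge, with earlier results of these data known. The lists share genes, so the counts of different lists are not separate results. In more than 1 list were 15 of 18 E protein targets, 19 of 27 early lymphoid genes and 9 of 20 B cell markers. Of the 17 tested genes of the E protein target list, 2 rose, 2 fell and 13 did not pass, with a median log2 fold change of 1.31. The shares over all tested genes were 10.1% higher and 7.89% lower. Pou2af1, a B cell coactivator, rose from 36.8 ± 17.6 to 200.3 ± 64.3 CPM (log2 fold change 2.44, edgeR adjusted p = 0.0423), and Pax5, the B cell commitment factor, from 14.7 ± 7.0 to 61.9 ± 17.0 CPM (2.08, edgeR adjusted p = 0.047). Both calls were lost without control 1, control 2, R274X 1 or R274X 2, with edgeR adjusted p between 0.113 and 0.15. Notch1, the T lineage receptor, fell (-0.52, edgeR adjusted p = 0.00659), as did Gfi1, a zinc finger repressor of stem and myeloid cells (-0.41, edgeR adjusted p = 0.0281), the latter not without control 2 (0.116) or R274X 1 (0.126). Leaving out control 1, control 2, R274X 1 or R274X 2, none of the 17 rose, and 7 rose without R274X 3; 3 fell without control 1, and 1 each without control 2 or R274X 1.

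Of 22 tested FOXO1 targets, 4 rose, 2 fell and 16 did not pass, with a median of 0.13. Again 10.1% of all tested genes were called higher and 7.89% lower. Tsc22d3, a glucocorticoid and FOXO induced leucine zipper gene, rose by 0.48 on the log2 scale (edgeR adjusted p = 0.00077), with values of 167 ± 1.62 and 234 ± 7.55 CPM. Ccr7, a lymph node homing receptor, rose by 1.06 (edgeR adjusted p = 0.0108; 0.051 without R274X 1), the catalase gene Cat by 0.44 (0.014) and the cell death gene Bcl2l11 by 0.40 (0.0221). Cat lost its call without control 1, control 2, R274X 1 or R274X 2, and Bcl2l11 without control 1, control 2 or R274X 2. Il7r and Rag1, named after their values were seen because they are the best known FOXO1 targets, had log2 fold changes of 1.07 and 1.72 that missed the threshold (edgeR adjusted p = 0.133 and 0.116). The 2 targets that fell had larger p-values than Tsc22d3, Ccr7, Cat and Bcl2l11 and are not named, so the named targets do not stand for the list. With control 1, control 2, R274X 1 or R274X 2 left out 2 rose, and the number that fell was 1 without control 1 or R274X 2, 2 without R274X 3 and 0 otherwise.

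Of 14 tested genes listed as BACH2 repressed targets, 6 rose, 2 fell and 6 did not pass, with a median of 0.11 (all tested genes: 10.1% higher, 7.89% lower). The list includes haem and iron genes, the class given above for Bach1, and repression by BACH2 in these cells was not tested. Blvrb, a biliverdin reductase, rose by 0.59 (edgeR adjusted p = 0.00532), and Cebpa, the myeloid C/EBP factor, and Gclm, a glutathione synthesis subunit, had log2 fold changes of -0.54 and -0.52 (edgeR adjusted p = 0.00213 and 0.00709). Prdm1, the plasma cell repressor, and the haem oxygenase gene Hmox1, both named after their values were seen, rose by 2.13 and 2.21 (edgeR adjusted p = 0.0479 and 0.0441), and each kept the call in 1 of the 6 fits that left out a library. The number that rose was 2 without control 1, control 2 or R274X 2 and 3 without R274X 1.

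Among 43 tested transcription factors of blood cells listed outside the 9, 10 rose, 10 fell and 23 did not pass, with a median of -0.09. All tested genes stood at 10.1% higher and 7.89% lower. The list mixes B cell factors such as Pax5 and Pou2af1, which rose, with stem, progenitor and myeloid factors such as Lmo2 and Gfi1, which fell. Its even split and median therefore describe that mixture and not lymphoid factors alone. Xbp1, a secretory cell factor, rose from 148 ± 15.6 to 361 ± 56.1 CPM (log2 fold change 1.29, edgeR adjusted p = 0.000213). Ets1, a lymphocyte ETS factor, rose by 0.93 (edgeR adjusted p = 0.000621) and Irf8, a dendritic cell and B cell factor, by 0.63 (0.00349), while the progenitor factor Lmo2 fell by 0.54 (0.000833). These 4 calls held in all 6 fits that left out a library. The counts did not: 4, 4, 3 and 3 rose without control 1, control 2, R274X 1 and R274X 2, and 6, 5 and 4 fell without control 1, control 2 and R274X 1.

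Among 26 tested early lymphoid and pro-B effector genes, 8 rose, 1 fell and 17 did not pass, with a median of 1.73 (all tested genes: 10.1% higher, 7.89% lower). Ccr9, a chemokine receptor of early T lineage and dendritic progenitors, rose by 0.97 (edgeR adjusted p = 0.00108), Lax1, a membrane adaptor, by 0.66 (0.00119), Blk, a B cell kinase, by 1.78 (0.00451) and Cd24a, a surface antigen of precursors, by 0.40 (0.00828). These 4 passed in all 6 fits that left out a library. The number that rose was 4 without control 1, control 2, R274X 1 or R274X 2 and 12 without R274X 3.

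Markers of mature and neighbouring cell types moved with the groups. Their counts stand beside 10.1% of all tested genes called higher and 7.89% called lower. Among B cell markers, 13 of the 19 tested rose and 0 fell, with a median of 1.95, and the CPM sum of 18 B cell markers other than immunoglobulin genes was 663, 556 and 890 in controls 1 to 3 and 2232, 2255 and 1334 in R274X libraries 1 to 3. Of 10 plasma cell markers 7 rose and none fell (median 2.33), and their summed CPM ranged from 359 to 939 in the controls and from 2182 to 4811 in the R274X libraries. Of 18 plasmacytoid and dendritic cell markers 11 rose and 2 fell, with summed CPM of 1339 to 1458 against 1985 to 2298.

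Of 20 macrophage markers 10 rose and none fell, with summed CPM of 3000.5 to 4296 against 5163 to 6643, and of 24 T and NK cell markers 14 rose and 2 fell, although their summed CPM overlapped between the groups. The shares over all tested genes (10.1% higher, 7.89% lower) apply here too. Of 15 stem and progenitor gate markers, Ly6a rose and 11 fell, among them Procr, Cd34 and Fgd5, and their summed CPM went from 2126 to 2228 in the controls to 1556 to 1764 in the R274X libraries. Leaving out control 1, control 2, R274X 1 and R274X 2 in that order, the numbers that rose were 8, 5, 6 and 6 B cell markers, 7, 7, 8 and 9 T and NK cell markers, and 7, 7, 7 and 7 plasmacytoid and dendritic cell markers. They were 3 plasma cell markers without control 1, 3 without R274X 1 and 4 without R274X 2, and 2, 5, 5, 4 and 2 macrophage markers without control 1, control 2, control 3, R274X 1 and R274X 2. Of the dendritic cell markers 1 fell in each of the fits but that without R274X 3. No listed marker of these types was at 0 in any library. The part of these markers in the differences of the 9 regulators was not tested.

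Library by library, Ikzf3 had the same order as the immunoglobulin percent and the B cell marker sum in both groups: control 3, 1, 2 and R274X 2, 1, 3. It was the only 1 of the 9 regulators with that order, which 4.79% of all tested genes and 12.2% of those called higher had. Phf6, which fell between the groups, had that order too. R274X library 3, with the lowest immunoglobulin share of its group, was the lowest of its group for Ikzf3, Tcf3, Tcf12, Foxo1, Bach2, Mef2c and Bcl11a, and the highest for Ikzf2. How many of all tested genes were lowest or highest in that library was not counted, so this describes the regulators only. Within the R274X group Tcf3 had the same order as the immunoglobulin percent. In the controls, whose percent ran only from 0.293% to 1.18%, Tcf3 stayed between 209.9 and 213 CPM, in another order. A relation of Tcf3 to this share was not tested.

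**Figure D5:**
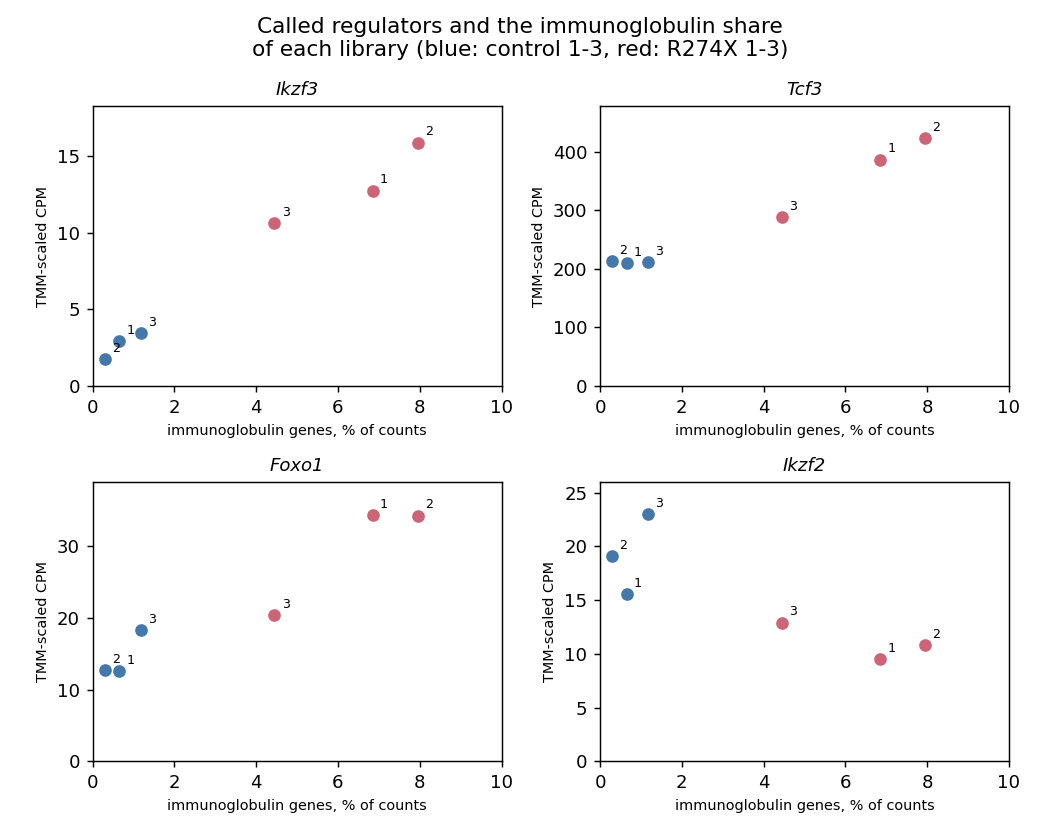
TMM-scaled CPM (vertical axes) of the 4 regulators that passed the test against the percent of counts in immunoglobulin genes (horizontal axes), one point per library (blue controls 1 to 3, red R274X libraries 1 to 3). The controls lie at 0.293% to 1.18% and the R274X libraries at 4.45% to 7.95%, with Ikzf3 rising through both groups.

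The genes whose levels were most like each regulator's over the 6 libraries were ranked by Pearson r of log2(CPM + 1) among 10794 genes with a mean of at least 5 CPM. Immunoglobulin genes and predicted (Gm or Rik) or unmapped identifiers were passed over when neighbours were named, so some may lie nearer. They were kept in the numbers of genes above 0.95. The libraries belong to either the control or the R274X group, so genes that differ between the groups tend to have a high r with each other. The value of r therefore describes the libraries and carries no test. Nearest to Ikzf3 were Tbcb (0.999) and Ppp1cb (0.997), to Foxo1 Pmm2 (0.999) and Txnrd3 (0.998), and to Tcf3 Ppp1r12b (0.997) and Kcnk6 (0.996). Ikzf2 lay nearest to Pja1 (0.998) and Mlkl (0.994), Bach2 to Fen1 (0.996) and Rnf115 (0.994), Tcf12 to Tmpo (0.993) and Gtf2h1 (0.993), and Bcl11a to Rabl2 (0.992) and Clybl (0.990). Ikzf1 and Mef2c had weaker neighbours, Map1lc3a (0.982) and Trit1 (0.966) for the first, Pmpcb (0.974) and Tmem11 (0.971) for the second. The number of genes above 0.95 was 512 for Ikzf3, 495 for Tcf3 and 493 for Foxo1, against 5 for Ikzf1 and 11 for Mef2c. Ikzf3, Tcf3 and Foxo1 had been called higher and Ikzf1 and Mef2c had not, so this contrast adds nothing to those calls.

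Gene length moved with the difference between the groups over all genes: the median log2 fold change went from 0.20 in the shortest decile of tested genes to -0.14 in the longest. Set against the median of their own length class, the regulators differed by 2.37 (Ikzf3), 1.13 (Foxo1), 0.82 (Tcf3), 0.72 (Bach2), 0.38 (Tcf12), 0.15 (Mef2c), 0.11 (Ikzf1), -0.03 (Bcl11a) and -0.66 (Ikzf2) on the log2 scale. With a gene length offset, 5 regulators were called higher, Tcf12 and Bach2 in addition to the 3, and Ikzf2 stayed lower (-0.65, edgeR adjusted p = 0.0161). Antisense genes overlap exons of Ikzf2 (1.24% of its exonic length), Bach2 (5.40%), Foxo1 (7.78%) and Bcl11a (2.40%), and these partners held 19, 23, 0 and 42 counts over the 6 libraries. No source used here states a stranded count, so those few reads cannot be assigned to a strand.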

How the data were processed

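Total RNA of 6 libraries was extracted with TRIzol and prepared with an Illumina TruSeq RNA kit, per the labels' protocols. The submitters' processing notes name Bowtie and the build mm8; a counting tool and an annotation were not given. Per the file headers, each library's deposited table lists a whole-number count and an FPKM value per Ensembl gene. Of the identifiers, 54409 matched GENCODE M21 (GRCm38) and 123 did not, so coordinates here are those of GRCm38. The implied gene lengths of the 9 regulators equal their merged exon lengths in that release, and the deposited FPKM values are already scaled between libraries.

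The deposited counts were tested with edgeR 4.0.16 in R 4.3.3 (quasi-likelihood, robust, TMM scaling, minimum count 10), with Benjamini-Hochberg adjustment over all tested genes. CPM values use the TMM factors. Alternatives used limma 3.58.1, DESeq2 1.42.0, other scalings, filters, pseudocounts (1 and 0.1 FPKM), covariates and left-out libraries, 19 in all. Permutation tests used SciPy 1.17.1. The fit was tested on simulated data. Replicates differed by a chi-square of at least 11.1 a gene, so no libraries were merged, and reads carry no molecular identifiers, so counting error alone understates the error.

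The regulators and the 12 gene lists were chosen with earlier results of these data known. The text names the 9 regulators, all tested relatives and Id genes, up to 4 genes with the smallest p from each other list, the 2 genes most like each regulator, and Phf6, Kit and Ly6a. Among the genes most like each regulator, immunoglobulin genes and predicted or unmapped identifiers were passed over. Genes named outside this rule are said to be.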

Additional observations from a re-analysis of the deposited data

How the results depend on the processing

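The direction of Ikzf2, Ikzf3 and Bcl11a was the same under all 19 alternatives, and the depth limits Ikzf3 and Bach2 most, with 33 to 240 counts a library. With the immunoglobulin percent as a covariate, 68 genes were called higher and 7 lower, and 0 regulators higher and 0 lower; Ikzf3 was 1.18 (edgeR adjusted p = 0.614) and Ikzf2 -0.46 (0.902). In that fit the log2 fold change changed sign for Ikzf1 (-0.0019), Tcf3 (-0.088), Tcf12 (-0.25), Foxo1 (-0.45), Bach2 (-0.19), Mef2c (-0.21), Tcf4 (-0.15), Id1 (0.047), Id3 (-0.44), Mef2a (-0.058), Mef2b (-1.06), Mef2d (-0.38), Irf8 (-0.074), Cat (-0.31), Cd37 (-0.077), Il7r (-0.23), Rag1 (-0.78) and Ebf1 (-0.36; named after its values were seen). None of these values that changed sign passed the threshold, and their SEs ran from 0.187 (Cat) to 1.32 (Mef2b). The percent does not overlap between the groups, so the covariate and the group cannot be told apart.

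Upper-quartile scaling called 1215 genes higher and 1430 lower, in place of 1469 and 1152, and gave Ikzf1 -0.016 and Mef2c -0.033; without a count filter Mef2c was -0.0078. limma on log2(FPKM + 1) called 586 genes lower and 0 regulators lower; with a pseudocount of 0.1 it called 967 genes higher, 565 lower and 0 regulators lower. With every gene of any FPKM kept it called 435 higher, 225 lower, 1 regulator higher and 0 lower. The gene length offset called 5 regulators higher. The cause of these shifts was not tested.

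Over the 6 fits without 1 library, 682 to 1882 genes were called higher, 507 to 1413 lower, 2 to 4 regulators higher and 1 lower, and the immunoglobulin ratio was 7.03 to 13.6. In these fits the log2 fold change lay on both sides of 0 for Ikzf1 (-0.011 to 0.056; below 0 without control 2), Mef2c (-0.036 to 0.053; without control 2, and -0.015 without R274X 1), Mef2a (-0.0029 to 0.11; without control 2), Mef2d (-0.0095 to 0.14; without R274X 2) and Ikzf5 (-0.18 to 0.47; without R274X 3, and -0.055 without control 3). No paired analysis was possible because the labels give no batch, date or pairing. They carry no replicate numbers either, and the numbers 1 to 3 used here follow accession order and only name the libraries.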
